A study of Rattus norvegicus with 6 samples.

Results

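The genes that carry type 2 immune signals from the alarmin Il33 to the effector cytokine Il13 were described in the rat pancreas by single-cell RNA sequencing. The 8 genes are members of the pathway by their known role, and were listed with earlier results of these data known: Il33, its receptor gene Il1rl1, the transcription factor genes Gata3 and Rora, the cytokine genes Il5, Il13 and Il4, and the growth factor gene Areg. All 8 were among the 32883 genes of the matrices, and each had at least 1 unique molecular identifier (UMI, the tag that marks one captured RNA molecule). The study compared male Wistar rats in 3 groups of 2, which it named young (2 months old, normal diet), old (20 months old, normal diet from the age of 2 months) and HFHF-old (20 months old, a high-fat high-fructose diet over the same 18 months), so that old against young concerned age and HFHF-old against old concerned diet. The paper calls the young rats its baseline group and gives no dates of library preparation. Old against young thus cannot tell age apart from time of collection. The rats carried no engineered allele. Each library came from the pancreas of 1 rat after collagenase P digestion and a density gradient used to isolate islets, so the share of each cell type also reflects that isolation.

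IL-33 is an alarmin stored in the nuclei of stromal and barrier cells and released when they are damaged. It binds the receptor ST2, encoded by Il1rl1, together with the chain encoded by Il1rap, on type 2 innate lymphoid cells (ILC2), mast cells, a part of the regulatory T cells and T helper 2 cells. GATA3 and RORα are transcription factors needed for ILC2 development, and GATA3 also drives the T helper 2 program. IL-5 recruits eosinophils, IL-13 and IL-4 share a receptor chain and act on epithelium, macrophages and fibroblasts, and amphiregulin, encoded by Areg, is a ligand of the EGF receptor.

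After filtering, 75201 cells remained, with 7381 to 17443 cells per library and a median of 2537 to 9391.5 UMIs per cell. Before filtering, the libraries held 77387928 to 166875258 UMIs over all their barcodes. Between 149 and 281 barcodes per library also occurred in another library. The second HFHF-old library stood apart: 85.4% of its cells fell in lymphoid and mast cell clusters, against 11.7% to 20.7% in the other libraries, and 68.5% were NK-like, while only 4 cells were endocrine-like. Of the cells of the second young library, 33.4% were acinar-like. Values are given per rat in the order of the replicate numbers, as counts per 1000000 (CPM), the UMIs of the gene scaled to all UMIs of the class in that rat, and a class was used in a rat that had at least 10 cells of it. Cells were clustered with the 8 genes held out and named from lists of markers that contain none of them.

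The promoters of Il5 and Il1rl1 are shown because these genes, the cytokine and the receptor, had their highest mean level in the same class. The RefSeq promoter table (GRCr8, 250 bases before to 50 bases after the start of the gene) held 7 of the 8 genes, all but Il13. Capitals mark the GATA hexamer, searched on both strands as AGATAA, as its variant AGATAG, as the form TGATAA and as its variant TGATAG.
Il5, chr10:38374882-38375181, + strand: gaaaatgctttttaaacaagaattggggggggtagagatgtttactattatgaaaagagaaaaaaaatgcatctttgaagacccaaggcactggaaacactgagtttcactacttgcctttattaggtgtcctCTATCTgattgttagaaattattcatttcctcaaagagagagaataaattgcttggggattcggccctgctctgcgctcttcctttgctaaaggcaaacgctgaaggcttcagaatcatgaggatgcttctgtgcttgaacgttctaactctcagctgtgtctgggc
Il1rl1, chr9:50203388-50203687, + strand: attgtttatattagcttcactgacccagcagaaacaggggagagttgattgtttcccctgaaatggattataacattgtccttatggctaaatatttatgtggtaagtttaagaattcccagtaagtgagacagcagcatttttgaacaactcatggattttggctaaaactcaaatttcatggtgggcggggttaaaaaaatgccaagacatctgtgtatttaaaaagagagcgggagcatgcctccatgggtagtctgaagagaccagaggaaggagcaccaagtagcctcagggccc
The Il5 window held 1 GATA hexamer, AGATAG on the - strand. It appears above as CTATCT, whose first printed base lies 117 bases before the start. The Il1rl1 window held 0 GATA hexamers. Of the other genes, Gata3 had 1 match and each of the 2 Il33 entries had 1, while Il4, Areg and Rora had 0. Of all 33469 promoters in the table, 30.3% held such a hexamer, so a match in a window of this length is common. The sequence AGGTCA, which RORα can bind, was in 16.2% of all promoters and in 0 of the windows of these genes.

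Il33 was found mainly in fibroblast-like cells, at a lower level in endothelial-like cells and at an overlapping level in the few mesothelial-like cells. The fibroblast-like class had the collagen-binding proteoglycan gene Dcn at 7903 to 11717 CPM, held 12175 cells and contained 92.6% of all Il33 UMIs. Its level was 717 and 631 CPM in the young rats, 543 and 587 CPM in the old rats and 682 and 1048 CPM in the HFHF-old rats, with a mean of 701 ± 181 CPM (SD, n = 6). The old rats had the lowest values and the second HFHF-old rat was the highest. An Il33 UMI was found in 75.3% of fibroblast-like cells (median 7793 UMIs per cell), against 0.848% of NK-like cells (median 8133 UMIs per cell), a class not known to transcribe Il33. Of the NK-like cells, 8030 of 11197 came from the second HFHF-old library. An Il33 UMI was also found in 9.70% of acinar-like cells (median 6035 UMIs per cell), and in 15.1% of an acinar-like cluster of 2826 cells, 2765 of them from the second young library.

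Within the fibroblast-like class, Il33 differed between clusters in the same order in 6 of 6 rats. The cluster led by Tnfrsf11b, which encodes the RANKL decoy receptor osteoprotegerin, had 847 and 921 CPM in the young rats, 894 and 986 CPM in the old rats and 861 and 1456 CPM in the HFHF-old rats. The cluster led by Pi16, a marker of adventitial fibroblasts, had 447 to 822 CPM, and 38.1% of its cells were called doublet-like. The cluster led by Mgp, which encodes matrix Gla protein, had 91.9 to 258 CPM. The Tnfrsf11b-led cluster was 3.28 to 15.8 times the Mgp-led cluster within a rat, with a median of 5.52. The mix of these clusters moved with the groups: the Tnfrsf11b-led cluster made up 59.3% and 39.9% of fibroblast-like cells in the young rats, 34.0% and 14.6% in the old rats and 66.0% and 51.8% in the HFHF-old rats, and the Mgp-led cluster 11.3% and 30.7%, 50.6% and 43.7%, and 19.7% and 24.0%. The old rats thus had the largest share of the cluster with the lowest Il33. The part of this mix in the Il33 level of the whole class was not tested.

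Mesothelial cells line the surface of the pancreas. The mesothelial-like class had 112 cells, with Msln at 1936 to 2637 CPM in the 4 rats with at least 10 cells. Il33 in them was 708 CPM in the first young rat, 422 and 733 CPM in the old rats and 317 CPM in the first HFHF-old rat, with a mean of 545 ± 207 CPM (SD, n = 4). In the second old rat, 25 of the 29 cells were doublet-like. The class contained 0.772% of all Il33 UMIs. Compared with fibroblast-like cells of the same 4 rats, the mesothelial-like level differed by -0.28 ± 0.60 (SD) in log2(CPM + 10), and was higher in 1 of 4 rats. The two-sided exact sign-flip permutation test gave p = 0.375 (adjusted p = 0.477). With 0.125 the smallest p that 4 rats allow, this test could not have shown a difference.

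The endothelial-like class held 1916 cells, with Flt1 and Cdh5 among its markers. Its Il33 level was 246 and 197 CPM in the young rats, 195 and 281 CPM in the old rats and 203 and 823 CPM in the HFHF-old rats, with a mean of 324 ± 247 CPM (SD, n = 6). The first 5 of these lay between 195 and 281 CPM, and the second HFHF-old rat, whose value rests on 93 cells, lay apart. Fewer endothelial-like than fibroblast-like cells had an Il33 UMI, at 19.5% of cells with a median of 2973.5 UMIs, against 15.1% in that acinar-like cluster at a median of 7144.5 UMIs. The acinar-like level was 5.17 to 17.1 CPM, below the endothelial-like level in every rat. Thinned to 1000 UMIs per cell, 7.53% to 21.6% of endothelial-like cells per rat had one, against 29.7% to 45.9% of fibroblast-like cells. Within rats, fibroblast-like cells were 1.27 ± 0.51 (SD) higher in log2(CPM + 10), in 6 of 6 rats (exact permutation p = 0.03125, the smallest that 6 rats allow; adjusted p = 0.0729). The 14 comparisons of classes within rats that gave a value were adjusted together. The smallest adjusted p that any of them reached was 0.0729. Since 6, 4 or 3 rats allow no p below 0.03125, 0.125 or 0.25, no adjusted p under 0.05 was possible in this set. These adjusted p therefore cannot decide whether a class differs from another.

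In the order of mean levels, ductal-like cells came next with 53.4 ± 34.3 CPM (SD, n = 5), without overlap with the endothelial-like range, followed by classes at under 40 CPM whose ranges overlapped. Acinar-like cells were at 8.92 ± 4.76 CPM, yet in the second young library, which held 3437 of them, they contained 17.4% of the Il33 UMIs. Fibroblast-like cells contained 93.0% and 63.1% of the library's Il33 UMIs in the young rats, 91.9% and 81.6% in the old rats and 96.7% and 93.3% in the HFHF-old rats. The widest of the 95% exact (Clopper-Pearson) binomial intervals of these shares was 61.3% to 64.9%, in the second young rat, and all intervals given here cover counting error only. The genes whose mean log2(CPM + 1) followed Il33 most closely over 14 named classes were Ltbp4 (Pearson r = 0.993), Abi3bp (r = 0.988), Dpysl3 (r = 0.973), Htra1 (r = 0.971) and Cdc42ep2 (r = 0.968). Ltbp4 and Abi3bp encode proteins of the extracellular matrix, and the classes share libraries, so these values are descriptions.

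**Figure D1:**
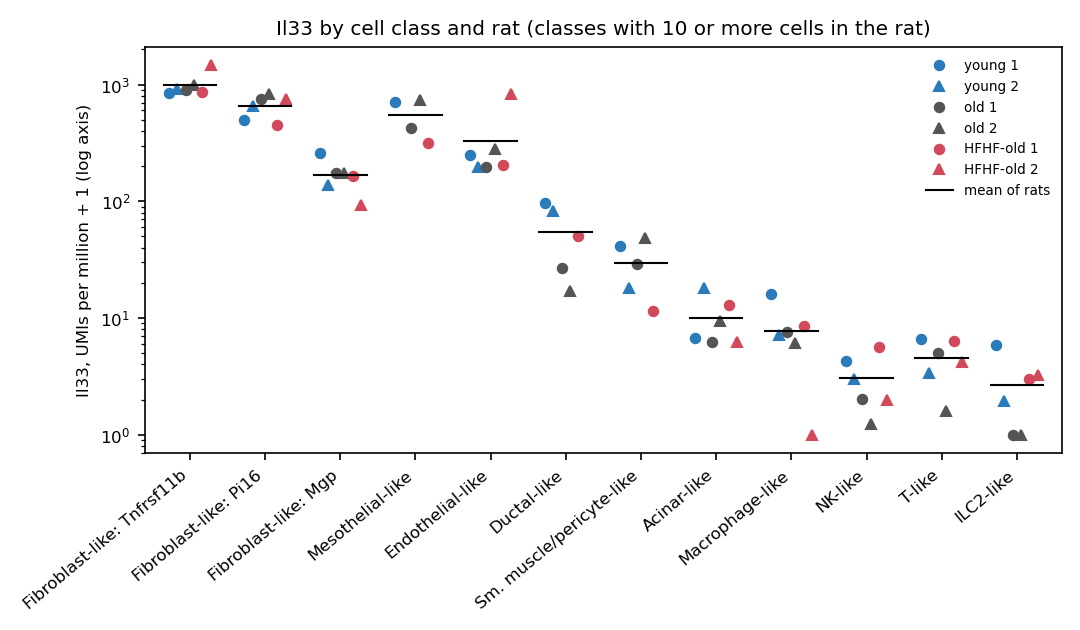
Il33 in CPM plus 1 (log axis) in each fibroblast-like cluster and 9 other classes; each point is 1 rat with at least 10 cells of the class, coloured by group, and the line is the mean of rats. The Tnfrsf11b-led fibroblast-like cluster lies highest in each rat, the Mgp-led cluster at 91.9 to 258 CPM, and the second HFHF-old rat stands above the others among endothelial-like cells.

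Between groups, Il33 was tested on UMIs summed per rat and class with edgeR's quasi-likelihood test, Benjamini-Hochberg adjusted over all genes tested in the class, and called at an adjusted p under 0.05 with a change of over 1.5-fold in either direction. In fibroblast-like cells, the mean was 674 ± 60.7 CPM (SD, n = 2) in young, 565 ± 31.2 CPM in old and 865 ± 259 CPM in HFHF-old rats. The log2 fold change was -0.26 (SE 0.30, edgeR adjusted p = 0.976) between old and young rats and 0.57 (SE 0.30, adjusted p = 0.837) between HFHF-old and old rats, the sign giving the change from the latter to the former. In endothelial-like cells it was 0.11 (SE 0.60, adjusted p = 0.999) and 1.06 (SE 0.60, adjusted p = 0.997). Without the second HFHF-old library the diet comparison gave 0.31 in fibroblast-like cells and turned to -0.25 in endothelial-like cells.

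Few genes passed these limits at all. For fibroblast-like cells, 0.0144% of 13894 genes (2 genes, AC127784.2 and RT1-Bb) were called between old and young and 0.0% (0 genes) between HFHF-old and old, while 914 and 873 had an unadjusted p under 0.05. For endothelial-like cells 0.0% of 10098 genes was called in both comparisons, with 372 and 386 genes at an unadjusted p under 0.05. DESeq2 called 166 and 128 genes in fibroblast-like and 13 and 2 in endothelial-like cells, old against young first. Of the 8 genes, 5 were tested in fibroblast-like and 4 in endothelial-like cells, and 0 were called.

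Il1rl1, Gata3, Rora and Il5 all had their highest mean level in a class of Cd3-poor lymphoid cells that carried ILC2 markers. Of the 17 markers in the ILC2 list, 9 were raised in each of its 2 clusters. This ILC2-like class had 1296 cells, of which 96.8% had no Cd3d, Cd3e or Cd3g UMI. Its Il2ra level, for the high-affinity IL-2 receptor chain, was 1044 to 4904 CPM, overlapping with 101 to 1259 CPM in T-like cells, and Il17rb, for the IL-25 receptor, was 82.1 to 170 CPM, against 0 to 2.35 CPM in T-like cells. The summed ILC2 marker level was 2179 to 6414 CPM against 315 to 1637 CPM in T-like cells, and the summed T cell marker level 290 to 439 CPM against 3270 to 4752 CPM in T-like cells. The classes were named from these lists, which hold Il2ra and Il17rb, so these levels describe the classes and are no independent check of their names. Ptgdr2, the gene of a prostaglandin D2 receptor often used to define human ILC2, was near 0 (mean 0.52 CPM). Acinar genes, summed over their marker list, ranged from 119 to 8416 CPM in the class.

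The ILC2-like class was unevenly spread over the rats, with 729 and 303 cells in the young, 24 and 63 in the old and 55 and 122 in the HFHF-old rats. As a share of lymphoid and mast cells this was 24.0% and 23.8%, 1.57% and 1.95%, and 3.91% and 1.22%, and as a share of all cells 4.18% and 2.95%, 0.325% and 0.384%, and 0.459% and 1.04%. The exact 95% binomial intervals of the last ran from 2.63% to 4.49% over the young rats and from 0.208% to 1.24% over the others. Both young rats lay above the 4 other rats on both scales. With 2 rats against 2, an exact permutation test of a single value cannot give a p below 0.333, and the isolation can change such shares. In the first HFHF-old rat, 54 of the 55 cells formed a cluster of their own (led by Thsd7b, Il1rl1, Il2ra and Pparg), while the ILC2-like cells of the other rats were in 1 cluster led by Thsd7b, Il1rl1 and Gata3.

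Il1rl1 in ILC2-like cells was 1347 and 1176 CPM in the young rats, 1612 and 1142 CPM in the old rats and 1970 and 1011 CPM in the HFHF-old rats. The mean was 1376 ± 357 CPM (SD, n = 6), and the ranges of the 3 groups overlapped, as did those of ILC2-like and mast-like cells. An Il1rl1 UMI was found in 94.1% of ILC2-like cells (median 5894.5 UMIs), against 6.57% of acinar-like cells (median 6035 UMIs) and 2.52% of T-like cells (median 5127 UMIs). Within rats the ILC2-like level was 6.39 ± 0.57 (SD) higher than the T-like level in log2(CPM + 10), in 6 of 6 rats (exact permutation p = 0.03125, adjusted p = 0.0729). The T-like class leaves out an unnamed Foxp3 cluster, described below, that was closest to the T list and had Il1rl1 at 539 to 1338 CPM.

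Gata3 was 1016 and 860 CPM in the young rats, 1114 and 1234 CPM in the old rats and 1105 and 1002 CPM in the HFHF-old rats. The mean was 1055 ± 127 CPM (SD, n = 6), the smallest spread relative to the mean of the 4 genes in this class, and no rat overlapped with the next class in the order. T-like cells had 106 ± 26.3 CPM and NK-like cells 120 ± 47.8 CPM (SD, n = 6). The ILC2-like level exceeded the T-like level by 3.22 ± 0.47 (SD) in log2(CPM + 10) in 6 of 6 rats (exact permutation p = 0.03125, adjusted p = 0.0729).

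Rora was 1741 and 985 CPM in the young, 1438 and 1303 CPM in the old and 2472 and 2630 CPM in the HFHF-old rats. Both HFHF-old rats were above the 4 others. In NK-like cells the HFHF-old mean of Rora was also the highest, at 937 ± 16.1 CPM (SD, n = 2). It was 481 ± 168 CPM there in old and 620 ± 210 CPM in young rats. The HFHF-old mean was also the highest outside lymphoid cells. In HFHF-old, old and young rats it was 226, 147 and 163 CPM in fibroblast-like and 184, 97.8 and 51.5 CPM in endothelial-like cells. In neutrophil-like cells it was 80.3, 20.9 and 38.9 CPM. Not every class had this order: dendritic-like means were 44.4 CPM in HFHF-old, 48.3 CPM in old and 67.5 CPM in young rats. The HFHF-old value was also the lowest in ductal-like, mesothelial-like and smooth muscle or pericyte-like cells, each with 1 HFHF-old rat. The mean was 1762 ± 660 CPM in ILC2-like, 679 ± 241 CPM in NK-like and 503 ± 322 CPM in T-like cells (SD, n = 6). The difference from T-like cells was 2.11 ± 1.06 (SD) in log2(CPM + 10), in 6 of 6 rats (exact permutation p = 0.03125, adjusted p = 0.0729). Rora was also high in several other lymphoid clusters. An NK-like cluster led by Myb and Srsf12 had 1452 ± 133 CPM (SD, n = 2) and held 26.7% of all Rora UMIs. Of the 3255 cells of that cluster, 3234 came from the second HFHF-old library and 13 from the second old library. A T-like cluster led by Themis reached 1940 CPM in 1 rat. The unnamed clusters led by Srcin1 and by Themis and Ccr9, each with 1 rat of at least 10 cells, had 1497 and 1252 CPM. The 2 unnamed clusters with Il23r and Ccr6, receptor genes of lymphocytes that make IL-17, among their leading genes had 1449 ± 352 CPM (SD, n = 2) and 1342 ± 427 CPM (SD, n = 6), and all of these overlapped with the ILC2-like range.

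Il5 was rare but concentrated, with 345 of its UMIs (65.3%) in ILC2-like cells. Its level there was 45.5 and 44.6 CPM in the young rats, 18.9 and 69.0 CPM in the old rats and 37.5 and 16.5 CPM in the HFHF-old rats, with a mean of 38.7 ± 19.4 CPM (SD, n = 6). The values of the old rats rest on 5 and 18 UMIs, and those of the HFHF-old rats on 19 and 22. No rat overlapped with another class, the next being the S100a8-led cluster described with the receptor's other sources (mean 2.43 CPM). In T-like cells 3 Il5 UMIs were found in all, and in mast-like cells 0. The ILC2-like level was 2.17 ± 0.61 (SD) above the T-like level in log2(CPM + 10), in 6 of 6 rats (exact permutation p = 0.03125, adjusted p = 0.0729). ILC2-like cells contained 56.7% to 84.6% of the Il5 UMIs of each library, with an exact 95% binomial interval as wide as 24.5% to 91.5% in the first old rat, where the library had 8 Il5 UMIs.

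An Il5 UMI was present in 267 of 1296 ILC2-like cells (20.6%), with at most 4 UMIs in a cell, against 0.0982% of NK-like cells and 0.542% of acinar-like cells, with median depths of 5894.5, 8133 and 6035 UMIs. The Il5-positive cells had an Il1rl1 UMI in 98.1% and a Gata3 UMI in 98.9%, compared with 93.1% and 92.9% of the ILC2-like cells without an Il5 UMI. They were also more deeply sequenced (median 7494 against 5445 UMIs), and the part of depth in this difference was not tested. Thinned to 1000 UMIs, 1.64% to 6.76% of ILC2-like cells per rat had an Il5 UMI.

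Il13, the last gene of the axis, was almost undetected. It had 3 UMIs in 75201 cells, each in a different cell: 1 in an unnamed Itih4-led lymphoid cell of the second young rat, 1 in an NK-like cell of the first old rat and 1 in a mast-like cell of the second HFHF-old rat. None of the 1296 ILC2-like cells had an Il13 UMI, including the 267 with Il5. The limits that a count of 0 allows (3 UMIs per library) were 0.726 and 1.44 CPM in the young, 11.3 and 11.5 CPM in the old and 5.92 and 2.25 CPM in the HFHF-old rats, for counting error only. The limits were lowest in the young rats, which had the most ILC2-like UMIs, and highest in the old rats, which had the fewest. In T-like cells Il13 was also at 0, with limits of 0.287 to 7.06 CPM. A difference between groups in Il13 was not detectable at this depth.

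Areg had 8 UMIs in ILC2-like cells, at 0 to 3.95 CPM, and 19 in T-like cells, at 0 to 2.24 CPM. The difference was 0.11 ± 0.22 (SD) in log2(CPM + 10), in 3 of 6 rats (exact permutation p = 0.375, adjusted p = 0.477). Areg was highest in ductal-like cells, at 69.3 and 0 CPM in the young, 0 and 38.3 CPM in the old and 195 CPM in the first HFHF-old rat. These 311 UMIs, 41.4% of all Areg UMIs, came from 28 cells, so the level rests on few cells in 3 rats. Mesothelial-like cells followed by mean level with 3.16 CPM (SD 3.96, n = 4) from 3 UMIs, and endocrine-like cells with 2.05 CPM (SD 1.78, n = 5) from 123 UMIs. Egfr, the receptor gene of its product, was at 248 CPM in fibroblast-like and 441 CPM in mesothelial-like cells (means of rats).

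**Figure D2:**
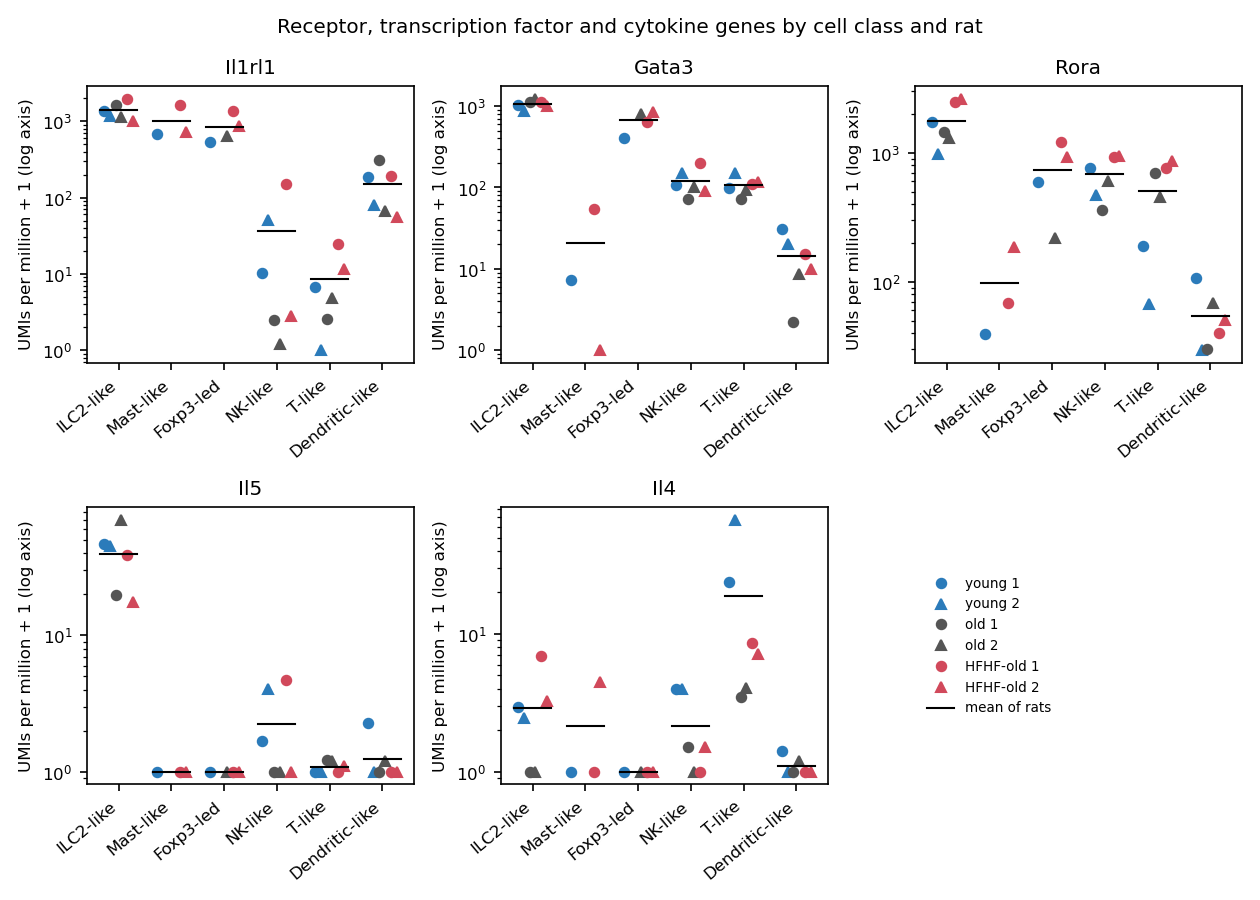
Il1rl1, Gata3, Rora, Il5 and Il4 in CPM plus 1 (log axes) in 6 classes; each point is 1 rat with at least 10 cells of the class, coloured by group, with the mean of rats as a line. ILC2-like cells lie highest for Il1rl1, Gata3, Rora and Il5, with Il5 between 16.5 and 69.0 CPM, while Il4 has its highest mean of these 6 classes in T-like cells.

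Mast cells store proteases and histamine and are also known to carry ST2. The mast-like class was small, with 22 and 5 cells in the young, 1 and 8 in the old and 10 and 31 in the HFHF-old rats, and was led by the protease genes Cma1 and Cpa3. In the 3 rats with at least 10 cells, Il1rl1 was 686 CPM in the first young rat and 1627 and 725 CPM in the HFHF-old rats, with a mean of 1013 ± 532 CPM (SD, n = 3). The ILC2-like level was higher in 3 of 3 rats, by 0.57 ± 0.35 (SD) in log2(CPM + 10) (exact permutation p = 0.25, the smallest that 3 rats allow; adjusted p = 0.389). Gata3 and Rora were lower in mast-like than in ILC2-like cells, by 5.59 ± 1.31 and 4.65 ± 0.77 (SD) in log2(CPM + 10), each in 3 of 3 rats with the same exact permutation p. Il5 was at 0 and Il4 and Il13 had 1 UMI each, both in the second HFHF-old rat. No old rat had 10 mast-like cells, so no comparison between groups was made for them.

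The receptor was also found outside ILC2-like and mast-like cells. A cluster led by Neb, Itgb8, Foxp3 and Ikzf2, which also had Ctla4 and Tnfrsf4 among its leading genes, held 144 cells and had Il1rl1 at 539 CPM in the first young rat, 631 CPM in the second old rat and 1338 and 865 CPM in the HFHF-old rats. Foxp3 encodes the transcription factor of regulatory T cells. The cluster was closest to the T list, with 7 of its 11 markers raised, and 63.9% of its cells had an Il1rl1 UMI. It was left unnamed because Icos, a marker of the ILC2 list, was among its leading genes. The T-like values therefore do not include it. Gata3 in this cluster was 667 ± 197 CPM (SD, n = 4), next after ILC2-like cells, and Il4 was at 0. Dendritic-like cells had Il1rl1 at 54.3 to 310 CPM, and contained 53.7% of the Il1rl1 UMIs of the first old library. An unnamed S100a8-led cluster of 883 cells had 5.58 to 664 CPM, with Il1rl1 and Gata3 also among its leading genes, and 43.1% of its cells were doublet-like. This cluster had 9 of 17 ILC2 markers raised. It was left unnamed because its leading genes held neutrophil markers and no marker of the ILC2 list.

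The share of a library's Il1rl1 UMIs in ILC2-like cells was 50.4% and 55.9% in the young, 12.7% and 20.8% in the old and 22.9% and 58.4% in the HFHF-old rats. The genes closest to Il1rl1 over the 14 named classes were LOC688282 (Pearson r = 0.923), Hpgds (r = 0.914), AABR07001573.1 (r = 0.890), Samsn1 (r = 0.878) and Cnksr3 (r = 0.877). Hpgds encodes the hematopoietic prostaglandin D synthase of mast cells and other immune cells. Il13 had too few UMIs for such a search.

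**Figure D3:**
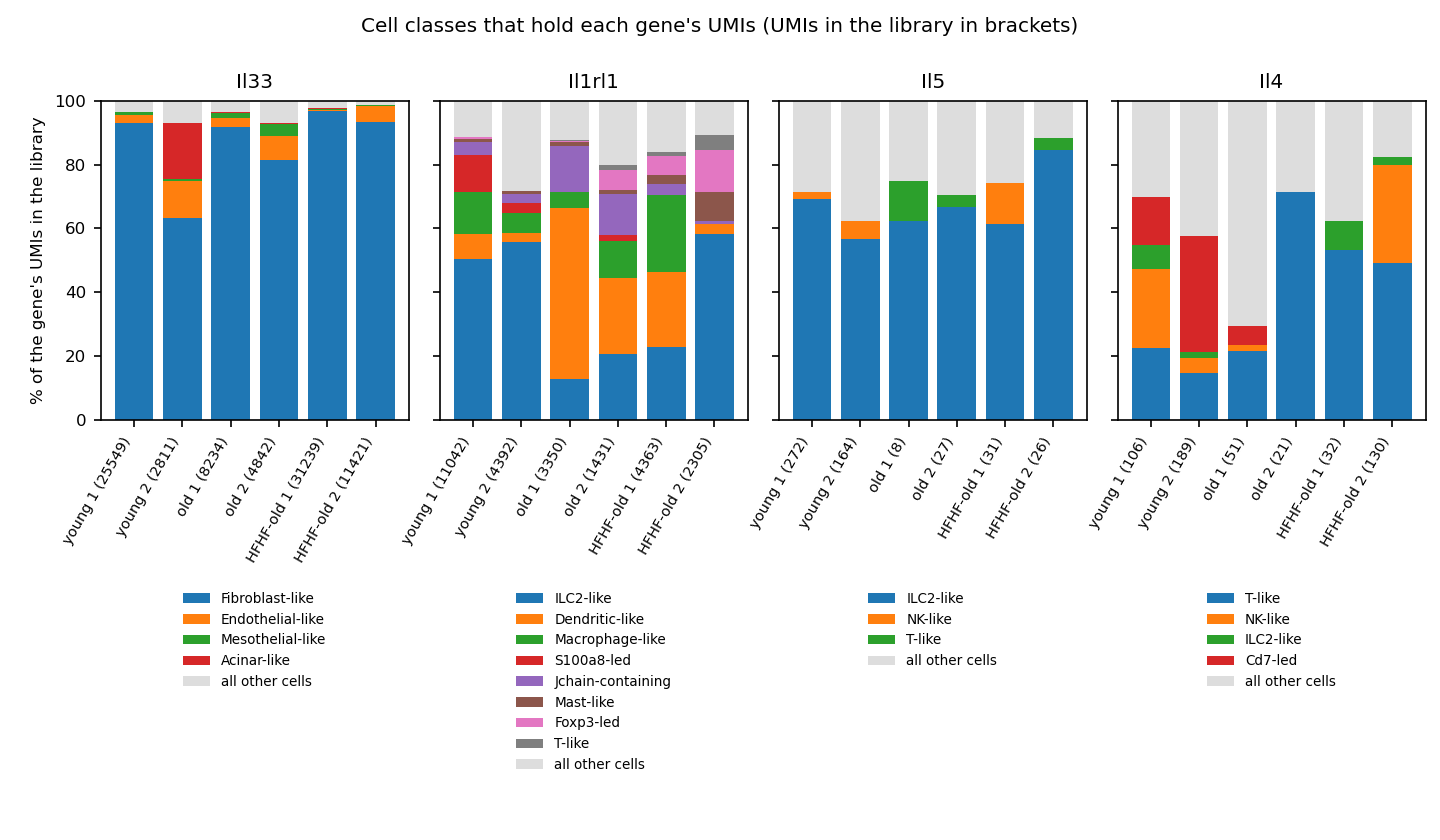
Share of each library's Il33, Il1rl1, Il5 and Il4 UMIs held by the named classes (stacked bars, 6 rats, percent of the gene's UMIs in the library, with that number in brackets). Fibroblast-like cells hold 63.1% to 96.7% of Il33 and ILC2-like cells 56.7% to 84.6% of Il5, whereas Il1rl1 is spread over more classes and T-like cells hold 49.2% to 71.4% of Il4 in the second old and both HFHF-old rats but 14.8% to 22.6% in the 3 other rats.

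A gate of lymphoid and mast cluster cells with no Cd3 UMI and at least 1 Gata3 UMI gave a wider population than the ILC2-like class. It took 7264 of 20486 cells (35.5%), with 1469 and 593 in the young, 382 and 389 in the old and 432 and 3999 in the HFHF-old rats. Only 16.3% of them were ILC2-like and 67.2% were NK-like, although 91.1% of ILC2-like cells were inside the gate. ILC2-like cells were 45.6% and 44.9% of the gate in the young, 5.76% and 14.4% in the old and 12.3% and 2.85% in the HFHF-old rats. In the first old rat 56.5% of the gate was the Itih4-led cluster, in the first HFHF-old rat 73.8% was a Tnni3k-led cluster, and in the second HFHF-old rat 94.3% was NK-like. The unnamed Itih4-led and Tnni3k-led clusters were closest to the NK list, with 10 and 9 of its 11 markers raised. They were left unnamed because of a marker of another list among their leading genes.

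Gated cells were chosen for at least 1 Gata3 UMI, so 1 is the lowest count they can have. The Gata3 counts that follow describe the gated cells only. They differed between classes but overlapped. Gated ILC2-like cells had a median of 6 Gata3 UMIs and an Il1rl1 UMI in 95.1%, while gated NK-like cells had a median of 1 Gata3 UMI and an Il1rl1 UMI in 1.62%. Exactly 1 Gata3 UMI was found in 9.57% of the gated ILC2-like and 59.2% of the gated NK-like cells. Il1rl1 over the whole gate was 642 and 562 CPM in the young, 105 and 173 CPM in the old and 317 and 33.2 CPM in the HFHF-old rats. Both young rats lay above the rest here, whereas within ILC2-like cells the same gene overlapped between the groups. Il5 over the gate was 20.2 and 22.0 CPM, 1.32 and 10.4 CPM, and 6.46 and 0.510 CPM, and Il13 was at 0 in all 6 rats.

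**Figure D4:**
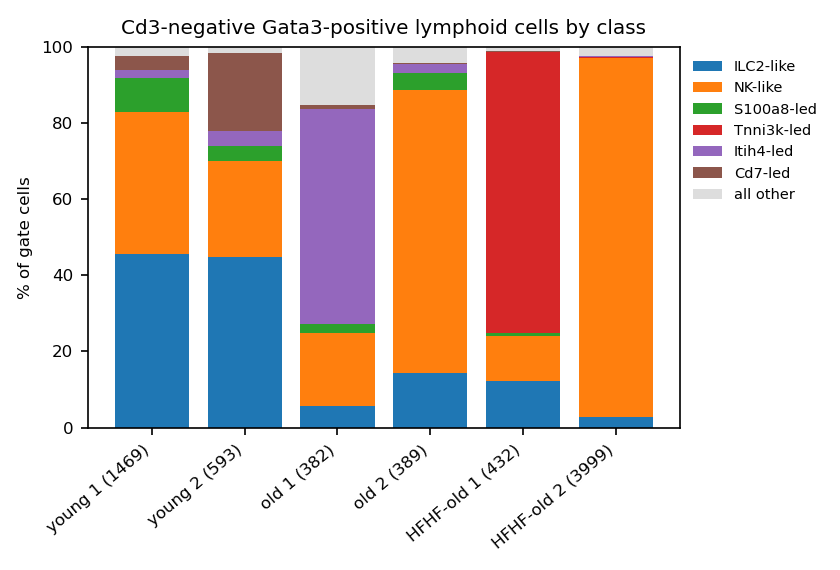
Makeup of the Cd3-negative Gata3-positive lymphoid gate by class (stacked bars, percent of gate cells per rat, number of gate cells in brackets). ILC2-like cells are 45.6% and 44.9% of the gate in the young rats and 2.85% to 14.4% in the 4 older rats, where NK-like, Itih4-led or Tnni3k-led cells take most of it. The Itih4-led and Tnni3k-led clusters are unnamed but closest to the NK marker list.

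Among the genes of the axis in ILC2-like cells, 4 were tested between groups and 0 were called. The calls over all 8190 genes were 0.0366% with age (3 genes, Skil, AC127784.2 and RT1-A1) and 0.0% with diet, with 621 and 1088 genes at an unadjusted p under 0.05, and DESeq2 called 40 and 28. For old against young, the log2 fold change was 0.25 (SE 0.34) for Il1rl1, 0.46 (SE 0.26) for Gata3, 0.15 (SE 0.30) for Rora and 0.11 (SE 0.55) for Il5, with edgeR adjusted p from 0.713 to 0.975. For HFHF-old against old it was -0.06 (SE 0.34) for Il1rl1, -0.34 (SE 0.27) for Gata3, 0.72 (SE 0.30) for Rora and -1.03 (SE 0.62) for Il5, with edgeR adjusted p from 0.367 to 0.964. Rora had the smallest unadjusted p of these, 0.041 by edgeR. The CPM carry no edgeR scaling factors, and for values near 0 the sign differed. Mean Il1rl1 was 1377 CPM in old and 1491 CPM in HFHF-old rats, and mean Il5 45.1 CPM in young and 43.9 CPM in old rats. Without the second HFHF-old library Rora was 0.65 and Il5 -0.44, and without the second old library Il5 turned to 0.29. The part of the cluster that held nearly all ILC2-like cells of the first HFHF-old rat in these values was not tested.

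In T-like cells, which were 187 and 56 cells in the young, 568 and 1618 in the old and 359 and 1262 in the HFHF-old rats, Il4 and Rora lay apart between young and old rats, but neither was called. Il4 was 22.6 and 65.9 CPM in the young, 2.46 and 3.04 CPM in the old and 7.60 and 6.13 CPM in the HFHF-old rats, from 24 and 28, 11 and 15, and 17 and 64 UMIs. Both young rats were above the 4 others, and both HFHF-old rats above both old rats. In NK-like cells the young mean of Il4 was also the highest, at 2.99 ± 0.04 CPM (SD, n = 2), against 0.25 CPM in old and 0.26 CPM in HFHF-old rats. In ILC2-like cells the HFHF-old mean was 4.09 CPM, against 1.69 CPM in young and 0 in old rats, from 17 UMIs in all. The limit of a count of 0, given with Il13, was above 4.09 CPM in both old rats, so no order of groups can be read there. The young mean was also the highest in acinar-like (0.84 CPM), endothelial-like (1.32 CPM) and fibroblast-like cells (0.31 CPM). In macrophage-like cells the old mean was the highest (0.35 CPM). In T-like cells the log2 fold change of Il4 was -3.81 with age (SE 0.56, edgeR adjusted p = 0.0940) and 1.12 with diet (SE 0.53, edgeR adjusted p = 0.382). Over its alternatives the old against young value ran from -4.42 to -2.93, and it was called by DESeq2, without the filter on low counts and when either HFHF-old library was left out, with adjusted p from 1.19e-10 to 0.0367 in these 4.

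Rora in T-like cells was 189 and 65.9 CPM in the young, 691 and 458 CPM in the old and 758 and 859 CPM in the HFHF-old rats, the lowest of the 4 older rats being above both young rats. The log2 fold change was 2.19 (SE 0.46, edgeR adjusted p = 0.236) with age and 0.35 (SE 0.43, adjusted p = 0.752) with diet. Il1rl1 was low in this class, which leaves out the unnamed Foxp3 cluster. It was 5.66 and 0, 1.57 and 3.85, and 23.7 and 10.5 CPM, with log2 fold changes of -0.36 (SE 0.99, edgeR adjusted p = 0.958) and 2.41 (SE 0.72, adjusted p = 0.295). Gata3 was -0.47 (SE 0.29) and 0.32 (SE 0.27), with edgeR adjusted p of 0.704 and 0.614. Of 10292 genes tested in T-like cells, 0.00972% (1 gene, Nr3c2) was called with age and 0.0% with diet, with 872 and 1453 at an unadjusted p under 0.05, while DESeq2 called 112 and 143. Of the 8 genes, 5 were tested.

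The T-like class was made of different clusters in different rats. A cluster led by Cd3d, Cd3g, Cd3e and Cd8b held 79.7% and 92.9% of T-like cells in the young rats and 30.5% and 61.4% in the old rats, but 0.279% and 7.37% in the HFHF-old rats. A Themis and Ccr9 cluster held 65.0% in the first old rat, a Slamf6-led cluster 73.1% in the second HFHF-old rat and a cluster with Camk4 and Cd28 among its leading genes 99.2% in the first HFHF-old rat. A further Themis-led cluster, with Trat1 and Il2 among its leading genes, held 35.1% in the second old and 19.3% in the second HFHF-old rat. The Cd3d-led cluster had 149 and 52 cells of the young, 173 and 994 of the old and 93 of the second HFHF-old rats. Within it, Il4 was 29.4 and 74.4 CPM in young, 9.19 and 5.53 CPM in old and 3.83 CPM in the second HFHF-old rat, so both young rats were also the highest there. Rora in that cluster was 191 and 71.7 CPM in young, 277 and 288 CPM in old and 253 CPM in the second HFHF-old rat, a narrower gap than over the whole class. Neither of these Themis-led clusters had an Il4 UMI in any rat. The one with Il2 among its leading genes had Rora at 683 to 1940 CPM in the 3 rats with at least 10 cells. How far the clusters account for the class values was not tested.

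Outside T-like cells, Il4 was found at 20.1 and 26.0 CPM in an unnamed cluster led by Cd7 and Art2b that came mostly from the young rats, with 139 and 348 of its 500 cells. It held 15.1% to 36.5% of a young library's Il4 UMIs, and the T-like share over the 6 libraries was 14.8% to 71.4%. In the second young library its share was above that of T-like cells. Of the 2 unnamed clusters with Il23r and Ccr6 among their leading genes, one had 0 to 23.5 CPM over the 6 rats, and the other had 7.38 CPM in the first old and 13.9 CPM in the second HFHF-old rat. The cluster with Jchain and Mzb1 among its leading genes, at 0 to 3.88 CPM, held 33.3% of the Il4 UMIs of the first old library, all 17 of them in 3 cells, against 21.6% in its T-like cells. T-like cells had more Il4 than ILC2-like cells by 0.90 ± 1.01 (SD) in log2(CPM + 10), in 6 of 6 rats (exact permutation p = 0.03125, adjusted p = 0.0729). ILC2-like cells had 17 Il4 UMIs in all, at 0 to 5.92 CPM. At a median of 5127 UMIs, 2.64% of T-like cells had an Il4 UMI, compared with 0.822% of acinar-like cells at a median of 6035 UMIs and 0.0903% of fibroblast-like cells at a median of 7793 UMIs, which are not known to transcribe it. Within the second young rat, the rat with the highest T-like Il4, an Il4 UMI was in 32.1% of T-like and 1.34% of acinar-like cells, and the latter held 25.4% of the library's Il4 UMIs. In the old rats the T-like shares were 1.58% and 0.680%, and the acinar-like shares 0.127% and 0. Mast-like and ILC2-like cells differed in Il4 by -0.26 ± 0.40 (SD, n = 3) in log2(CPM + 10), exact permutation p = 0.5.

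**Figure D5:**
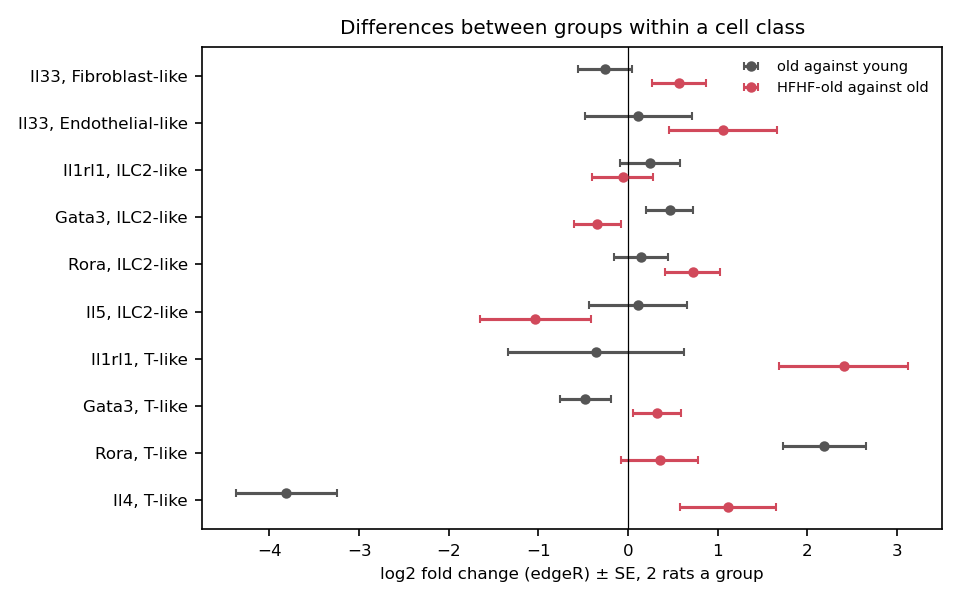
Log2 fold changes with SE from edgeR for 10 pairs of gene and class in the age comparison and the diet comparison (2 rats a group, the old rats shared by both). None was called; Il4 and Rora in T-like cells, at -3.81 and 2.19, lie farthest from 0 in the age comparison.

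The levels of other pathway genes that follow were picked by role after their values were seen, apart from those among the 3 smallest p in a class and comparison. Of 66 other genes of the pathway, 37 to 50 were tested in a class, and edgeR with its filter on low counts called 0 in any of the 8 comparisons, set against the percentages of all genes called that are given above. This count depended on the method. DESeq2 called Calcrl and Socs1 in ILC2-like cells and Il2ra and Zbtb16 in T-like cells. Each was called in a comparison given for it below, and Zbtb16 not in both. Without the filter these and other named pathway genes were called as well, among them Ccl11 and Il18 in fibroblast-like cells in both comparisons. Over the list, the median log2 fold change ran from -0.12 (T-like, old against young; all genes 0.04) to 0.17 (T-like, HFHF-old against old; all genes 0.02). Among the other alarmins, Tslp was highest in smooth muscle or pericyte-like cells (3.05 CPM) and Il25 had 22 UMIs in all. Il18 was highest in dendritic-like cells (390 CPM). In fibroblast-like cells it was 11.3 and 12.4 CPM in young, 24.2 and 31.3 CPM in old and 15.1 and 10.9 CPM in HFHF-old rats, log2 fold changes of 1.23 and -1.11 with edgeR adjusted p of 0.447 and 0.565. Both old rats lay above the 4 others.

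Among receptors, Il1rap, the partner chain of ST2, was 40.4 and 41.2 CPM in ILC2-like cells of young, 94.4 and 99.6 CPM in old and 27.6 and 61.6 CPM in HFHF-old rats. The old rats were again the highest, with log2 fold changes of 1.38 with age (edgeR adjusted p = 0.443) and -1.19 with diet (adjusted p = 0.343). In the Cd3-negative Gata3 gate these were -0.08 and 0.29. Il5ra, the receptor gene of IL-5 on eosinophils, had 73 UMIs in all 75201 cells. Il13ra1, a chain that binds IL-13, was highest in dendritic-like (80.7 CPM) and reached 31.5 CPM in fibroblast-like cells, and Il13ra2, a decoy receptor gene, was highest in mesothelial-like cells (56.0 CPM).

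Among modulators, Calcrl and Ramp1, which together encode the receptor of the neuropeptide CGRP, were at 327 and 488 CPM in ILC2-like cells (means of rats). Calcrl was 503 and 457 CPM in young, 208 and 195 CPM in old and 326 and 273 CPM in HFHF-old rats, with a log2 fold change of -1.12 for old against young (SE 0.26, edgeR adjusted p = 0.339). Cysltr1, a leukotriene receptor gene, was at 225 CPM in ILC2-like and 2.12 CPM in T-like cells, and Nmur1, the neuromedin U receptor gene, at 25.1 and 0.57 CPM. Both are in the marker list that named the ILC2-like class, so these levels are a description. Socs1, a negative regulator of cytokine signalling, was, in ILC2-like cells, 140 and 175 CPM in young, 253 and 226 CPM in old and 116 and 81.2 CPM in HFHF-old rats, a log2 fold change of -1.48 for HFHF-old against old (SE 0.29, edgeR adjusted p = 0.339).

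Among the lineage factors, Zbtb16, which encodes PLZF of innate-like lymphocytes, was 48.1 and 101 CPM in T-like cells of young, 4.70 and 1.42 CPM in old and 35.8 and 19.6 CPM in HFHF-old rats. Its log2 fold changes were -4.48 (edgeR adjusted p = 0.0820) in the age comparison and 3.00 (adjusted p = 0.213) in the diet comparison, an order of groups like that of Il4 in the same cells. Il2ra in T-like cells was 253 and 101 CPM in young, 1259 and 476 CPM in old and 936 and 938 CPM in HFHF-old rats (2.31 for old against young, edgeR adjusted p = 0.268). Both young rats were the lowest, as for Rora, but here the first old rat was the highest.

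Among genes known as targets of IL-4 or IL-13, Ccl11, which encodes the eosinophil attractant eotaxin, was highest in fibroblast-like cells. It was 6.03 and 17.1 CPM in young, 243 and 36.8 CPM in old and 9.23 and 14.5 CPM in HFHF-old rats, log2 fold changes of 3.70 and -3.58 with edgeR adjusted p of 0.446 and 0.488. The first old rat was far above the second. Ccl24, another eotaxin gene, was highest in macrophage-like cells (746 CPM) and Postn, a matrix protein gene, in fibroblast-like cells (392 CPM). Ccl24 and Postn are in the marker lists that named these classes, so their highest class was partly fixed by the naming. Other effector cytokine genes were scarce: Il9 had 0 UMIs, Il3 had 2, and Csf2 was at 2.18 CPM in ILC2-like cells. Il6 was 73.7 CPM in fibroblast-like and 36.0 CPM in ILC2-like cells (means of rats).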

How the data were processed

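The authors deposited, per library, a filtered Cell Ranger matrix of raw UMI counts (10x 3' chemistry, 1 rat per library; the file headers name Cell Ranger 5.0.0 and the submitters' processing notes name Rnor_6.0). Of 78024 barcodes, 2823 were left out for fewer than 200 genes, over 25% mitochondrial UMIs or a gene number in the top 1% of all barcodes. Scanpy 1.11.5 scaled cells to 10000 UMIs and clustered them (2000 variable genes, Leiden resolution 1) without the 8 genes, and clustered lymphoid and mast cells once more. A name needed at least 3 markers and 50% of its list at a log2 fold of at least 1. The 8401 doublet-like cells were kept. Sums of UMIs for each rat and class entered edgeR 4.0.16 (TMM factors, default filter on low counts, quasi-likelihood test, all 6 rats in one fit), without rats that had under 10 cells of the class. Both comparisons share the old rats. Beside the 8 genes, the 3 pathway genes with the smallest p in each class and comparison, and the 5 genes most like Il33 and Il1rl1, were named by rule. The 8 genes, the 66 pathway genes and the markers were chosen with earlier results of these data known. The tests were checked on simulated counts. Levels of different genes are not compared. Alternatives were DESeq2 1.42.0, other scaling factors, no filter, other pseudocounts, the mean over cells, removal of doublet-like cells, the gate in place of ILC2-like cells, a replicate block and leaving out each rat.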

Additional observations from a re-analysis of the deposited data

How the results depend on the processing

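With 2 rats a group, few cells in some classes and 3 Il13 UMIs, only large differences could be detected. In each case below the cause was not tested. Other scaling factors changed the direction or call of none of the 26 main and 42 single-gene values they were run on, nor did a pseudocount of 1 CPM or the mean over cells for the 14 class comparisons. The Cd3-negative Gata3 gate in place of ILC2-like cells turned the old against young log2 fold change of Cish to -0.56, Il1rap to -0.075, Il1rl1 to -2.04, Il5 to -1.93 and Rora to -0.29, the HFHF-old against old change of Il1rap to 0.29 and of Il1rl1 to 0.13, and the difference of Il1rl1 from mast-like cells to -2.17. Without doublet-like cells Gata3 in fibroblast-like cells was -0.40 for HFHF-old against old. In endothelial-like cells, old against young, Il1rl1 was -0.0075 without the filter on low counts and -0.020 with the replicate block, and Il33 was -0.0019 with the block. In T-like cells Il1rl1 for HFHF-old against old was called without the filter (2.38), and Rora for old against young with DESeq2 (2.19) and without the filter (2.26). Of the 42 other single-gene values of named genes, all not called in the main test, 5 were called with DESeq2 (Il4, Il2ra and Zbtb16 in T-like and Calcrl and Socs1 in ILC2-like cells) and 20 without the filter, including Gata3 in fibroblast-like cells (-1.43, old against young), Il1rl1 in endothelial-like cells (-1.93, HFHF-old against old) and 17 of pathway genes besides Il4 in T-like cells. Leaving out a rat gave 7 such calls, of Il4, Zbtb16, Maf and, in endothelial-like cells, Il1rl1. Genes called (HFHF-old against old, then old against young) with DESeq2 were 2 and 13 in endothelial-like, 128 and 166 in fibroblast-like, 28 and 40 in ILC2-like and 143 and 112 in T-like cells, and without the filter 242 and 246, 506 and 529, 162 and 132, and 559 and 316. The replicate numbers did not pair the rats (correlations from -0.14 to 0.21 between same-numbered rats). The replicate block called 2 genes in fibroblast-like cells for HFHF-old against old, 1 and 1 in ILC2-like and 1 and 2 in T-like cells, and without doublet-like cells 1 gene was called in fibroblast-like cells for old against young and 2 in ILC2-like cells for HFHF-old against old. Leaving out each rat in turn, old against young ran from -2.81 to 4.82 for Areg and -0.56 to 0.44 for Rora in fibroblast-like cells, -0.54 to 0.84 for Gata3, -0.098 to 0.098 for Il1rl1 and -0.25 to 0.40 for Il33 in endothelial-like cells, -1.23 to 0.82 for Il5 and -0.17 to 0.56 for Rora in ILC2-like cells, and -1.22 to 6.74 for Il1rl1 and -2.63 to 0.059 for Il33 in T-like cells. HFHF-old against old ran from -0.67 to 1.15 for Gata3 in fibroblast-like cells, -7.98 to 0.58 for Gata3 and -0.25 to 1.72 for Il33 in endothelial-like cells, -0.57 to 0.32 for Il1rl1, -1.76 to 0.29 for Il5 and -2.59 to 0.012 for Tnfrsf18 in ILC2-like cells, and -0.039 to 2.48 for Il33 in T-like cells. Where this left a group with 1 rat, that rat was assumed to vary like the others. The genes called then ran, for HFHF-old against old, from 0 to 15 in endothelial-like, 0 to 176 in fibroblast-like, 0 to 25 in ILC2-like and 0 to 97 in T-like cells, and for old against young from 0 to 4, 0 to 49, 0 to 4 and 0 to 53.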
